A study of Mus musculus with 9 samples.

Results

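The cells described here are 378 Mrc1-negative macrophages among 58645 kept cells from primary mouse mammary tumours. They were picked by transcript counts. Kept barcodes had over 500 genes detected, below 7500, and mitochondrial genes gave under 15% of their unique molecular identifiers (UMIs, each standing for 1 captured transcript). A macrophage had no UMI of the tumour transgene H2BMc, of Krt8 (epithelial keratin), Cd3e (T cells) or Pecam1 (endothelium), and a UMI of at least 2 of C1qa, C1qb, C1qc, Csf1r and Adgre1. The 378 members of the class had no Mrc1 UMI, and the 281 macrophages with at least 1 are called Mrc1-positive below. Counts of these 10 genes chose the cells and are given only as a description.

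The tumours grew from 168FARN, a mouse mammary tumour cell line that does not metastasise, in the mammary fat pads of female Balb/c mice. The line was unmodified at the histone methyltransferase genes (WT), or carried CRISPR/Cas9 deletions in Kmt2c (Kmt2c KO) or in Kmt2d (Kmt2d KO) made with a pool of guides. Each group had 3 libraries. All tumour cells, WT included, carried a histone H2B-mCherry transgene (H2BMc), and the macrophages came from the mouse host, whose own Kmt2c and Kmt2d were intact. The KO lines were sorted pools, not single clones. The study gives the age of the mice at purchase but not at collection of these tumours. No second pool per genotype is described, so a genotype and its pool of cells cannot be told apart. Libraries were named by genotype letter in the deposited matrix, so the numbers 1 to 3 below only tell libraries apart. The p-values rest on the spread between libraries.

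Mrc1 encodes the mannose receptor CD206, a scavenger receptor carried by many tissue-resident and alternatively activated macrophages. Major histocompatibility complex (MHC) class II molecules hold peptides from engulfed proteins for CD4 T cells, and their genes are switched on together by the transactivator Ciita. Type I interferon and interferon gamma each switch on a large antiviral or immune gene set, while lipid-handling genes let macrophages take up, carry, digest, store and export cholesterol and fatty acids.

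Promoters of genes from the class II and interferon programmes are shown first, because the members are described by these groups of genes that share control elements. The sequences are from RefSeq on build GRCm38.p6. Each gives the 150 bases before the gene's start, 5′ to 3′ on the gene's own strand. Capitals mark CCAAT or its reverse complement ATTGG (the CCAAT box, part of the conserved class II promoter) in the first 2, and GAAA, any 2 bases and GAAA, or the reverse complement (the core of the interferon-stimulated response element, with overlapping matches joined), in the last 2.
H2-Aa (chr17:34287824-34287973, minus strand): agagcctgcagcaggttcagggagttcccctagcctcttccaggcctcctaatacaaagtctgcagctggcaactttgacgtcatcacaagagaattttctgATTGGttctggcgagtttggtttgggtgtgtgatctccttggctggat
H2-Eb1 (chr17:34305717-34305866, plus strand): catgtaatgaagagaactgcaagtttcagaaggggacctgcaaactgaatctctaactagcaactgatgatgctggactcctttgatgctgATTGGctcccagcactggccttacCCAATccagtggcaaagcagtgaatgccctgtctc
Isg15 (chr4:156200819-156200968, minus strand): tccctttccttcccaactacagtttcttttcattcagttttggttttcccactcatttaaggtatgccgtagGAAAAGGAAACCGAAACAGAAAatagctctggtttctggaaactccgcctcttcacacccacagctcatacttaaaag
Bst2 (chr8:71537473-71537622, minus strand): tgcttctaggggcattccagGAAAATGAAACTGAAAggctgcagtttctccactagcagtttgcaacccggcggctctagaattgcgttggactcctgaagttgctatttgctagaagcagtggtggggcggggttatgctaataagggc

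In the full 250 bases before the start, CCAAT or ATTGG stood in all 8 class II genes that had an entry, of 11 in the list, and in 33.8% of 32851 promoters. The interferon element core, on either strand, stood in 13 of the 32 type I interferon genes that had an entry, of 43 in the list, and in 2.98% of all promoters. A match of letters is a description and says nothing of binding in these cells.

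The whole experiment comprised 89147 barcodes and 585680611 UMIs, with 21529691 to 125617312 UMIs per library. The share of barcodes over the mitochondrial limit was 26.6% to 68.5% in WT and at most 29.5% in Kmt2c KO and 27.2% in Kmt2d KO libraries. No member's barcode sequence recurred among the members of another library, although 28 recurred in a kept cell of another library. In the cells with an H2BMc UMI, Kmt2c stood at 48.1 to 49.1 counts per 1000000 UMIs (CPM) in WT and at 42.0 to 57.6 CPM in Kmt2c KO libraries. Kmt2d stood at 14.9 to 21.4 CPM in WT and at 24.3 to 31.9 CPM in Kmt2d KO libraries. Small deletions need not lower a transcript's count, so these levels do not check the labels.

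Members were few in every tumour. WT libraries held 5, 15 and 20 members, Kmt2c KO libraries 44, 107 and 101, and Kmt2d KO libraries 23, 43 and 20. They carried 1175861 UMIs in all, from 17429 in WT 1 to 327604 in Kmt2c KO 3, so that 1 UMI was worth 57.4 CPM in WT 1 and 3.05 CPM in Kmt2c KO 3. A count of 0 in the members of WT 1 allowed a level of up to 172 CPM, the level of 3 UMIs, by counting error alone. The median member had 2015.5 UMIs and 1060.5 genes, against 2748 UMIs and 1443 genes in Mrc1-positive cells, and 11694 UMIs in H2BMc cells.

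The label of leucocyte held for most members but not for all, and the label of macrophage rests on the genes of the rule. Of the 378, 145 had a UMI of just 2 of the 5 marker genes, 102 of 3, 102 of 4 and 29 of all 5, whereas 115 of the 281 Mrc1-positive cells had all 5. The marker genes together gave a median of 6 UMIs in members and 26 in Mrc1-positive cells. Pan-leucocyte transcripts not used by the rule, namely Ptprc (CD45), Tyrobp and Fcer1g (adaptors of activating receptors), Laptm5, Ctss (cathepsin S) and Lyz2 (lysozyme), gave a median of 14 UMIs in members, 36 in Mrc1-positive cells and 0 in H2BMc cells. In 83 members (22.0%) these 6 genes summed to under 3 UMIs, and in 42 they were at 0. The same held for 4 Mrc1-positive cells (1.42%).

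The 83 cells were unevenly spread. They were 3 of the 40 WT members (1 of 5, 2 of 15 and 0 of 20 by library), 43 of 252 in Kmt2c KO (11 of 44, 16 of 107 and 16 of 101) and 37 of 86 in Kmt2d KO (3 of 23, 24 of 43 and 10 of 20). Spp1 (osteopontin), which H2BMc cells held at 8420 CPM with a UMI in 99.6% of cells, stood at 8674 CPM in the 83 cells with a UMI in 94.0% of them. Lyz2 was at 43.0 CPM in those 83 cells and at 4599 CPM in the 295 members with 3 or more leucocyte UMIs. C1qa, a gene of the rule, stood at 165 CPM in the 83 cells and at 2140 CPM in the other 295. Lyz2 was among the 6 genes that set these cells apart and C1qa among those that chose the members, so both levels are a description. The main results below are also given for the 295 members alone (members with leucocyte transcripts). Among H2BMc cells, 0.910% had 3 or more leucocyte UMIs.

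Just outside the rule, 1254 barcodes met every other limit with a UMI of 1 marker gene, and their median leucocyte count was 0. Members with 2 markers had a median of 3 leucocyte UMIs and members with 3 or more had 20. On the Mrc1 side, 94 Mrc1-positive cells (33.5%) had a single Mrc1 UMI, and their median leucocyte count was 24.5. An absent Mrc1 UMI in a cell of median depth therefore describes a count and not the absence of the receptor.

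Markers of other leucocytes summed to low levels in the members but were found in many cells. Of the 378, 147 (38.9%) had a UMI of a dendritic, neutrophil, T, natural killer, B, plasma, mast cell or basophil marker, as had 145 of the 281 Mrc1-positive cells (51.6%). A dendritic cell marker was found in 23.5% of members, 32.4% of Mrc1-positive cells and 65.6% of the deeper H2BMc cells, with up to 89 UMIs in 1 member. Summed over all members, the 9-gene T and natural killer cell list stood at 26.4 CPM (0 in 5 of 9 libraries, 65.9 CPM at most), the 7-gene neutrophil list at 33.2 CPM (9.94 to 66.8 CPM by library) and the 5-gene B and plasma cell list at 3.40 CPM (0 to 21.9 CPM), with Cd79a and Ms4a1 at 0. The 11-gene dendritic cell list reached 261 CPM (83.7 to 519 CPM by library), against 209 CPM in Mrc1-positive cells and 114 CPM in H2BMc cells. The 7-gene fibroblast list stood at 183 CPM in members, 77.9 CPM in those with leucocyte transcripts, 37.2 CPM in Mrc1-positive cells and 235 CPM in H2BMc cells. The 6-gene endothelial list gave 33.2 CPM and the 5-gene mural list 38.3 CPM in members. The part of such cells in the results was not tested.

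Mrc1-negative cells made up a larger share of macrophages in every Kmt2c KO library than in any WT library. The share was 20.0%, 37.5% and 37.7% in WT, 66.7%, 65.6% and 67.3% in Kmt2c KO, and 33.8%, 70.5% and 60.6% in Kmt2d KO. The 3 Kmt2c KO libraries lay within 2 percentage points of each other and above all WT libraries, while Kmt2d KO 1 lay among the WT libraries and the others at the level of Kmt2c KO. The means were 31.7% ± 10.2 (SD, n = 3), 66.5% ± 0.851 (SD, n = 3) and 55.0% ± 19.0 (SD, n = 3). The interval from counting error was 6.83% to 40.7% for WT 1, which had 25 macrophages, and 57.8% to 72.9% for Kmt2c KO 2, which had 163 (exact Clopper-Pearson, 95%).

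A Kruskal-Wallis statistic over the 3 genotypes, with its p from exact permutation of libraries, did not pass for this share (p = 0.168, adjusted p = 0.452 over 8 tests). The difference between Kmt2c KO and WT was 34.8 percentage points (exact permutation p = 0.1, the smallest that 3 against 3 libraries can give). The exact permutation test gave p = 0.3 for Kmt2d KO against WT (23.2 points) and p = 0.4 for Kmt2d KO against Kmt2c KO (a difference of -11.6 points). Among cells with leucocyte transcripts the shares were 16.7%, 34.2% and 37.7% in WT, 61.1%, 61.9% and 63.4% in Kmt2c KO and 31.7%, 52.8% and 43.5% in Kmt2d KO, and the exact permutation p over the 3 genotypes was 0.025, without adjustment. Kmt2d KO 2 moved most between these settings, as 24 of its 43 members had under 3 leucocyte UMIs.

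Depth differed between the libraries. The median Mrc1-positive cell had 3279 to 3968 UMIs in WT, 1907 to 2514 UMIs in Kmt2c KO and 2650 to 4626 UMIs in Kmt2d KO libraries, with the most in Kmt2d KO 2, which also had the highest share of Mrc1-negative cells. The median member had 1425 to 2511 UMIs in WT, 1678 to 1959 UMIs in Kmt2c KO and 2015 to 3812 UMIs in Kmt2d KO, so that WT and Kmt2c KO overlapped. Cells of at least 1000 UMIs were thinned to 1000 UMIs, shallower cells were left out, and the rule was applied again. The share was then 46.7%, 48.6% and 50.0% in WT, 73.6%, 73.4% and 71.5% in Kmt2c KO, and 46.2%, 68.6% and 65.2% in Kmt2d KO (exact permutation p = 0.05, without adjustment). The gap between Kmt2c KO and WT narrowed from 34.8 to 24.4 points and all Kmt2c KO libraries again lay above all WT libraries. The parts of depth and of the cells left out in this narrowing were not tested. As a share of all kept cells, members were 0.422%, 0.630% and 2.13% in WT, 0.372%, 1.22% and 1.68% in Kmt2c KO and 0.384%, 0.611% and 0.138% in Kmt2d KO, and the groups overlapped.

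**Figure D1:**
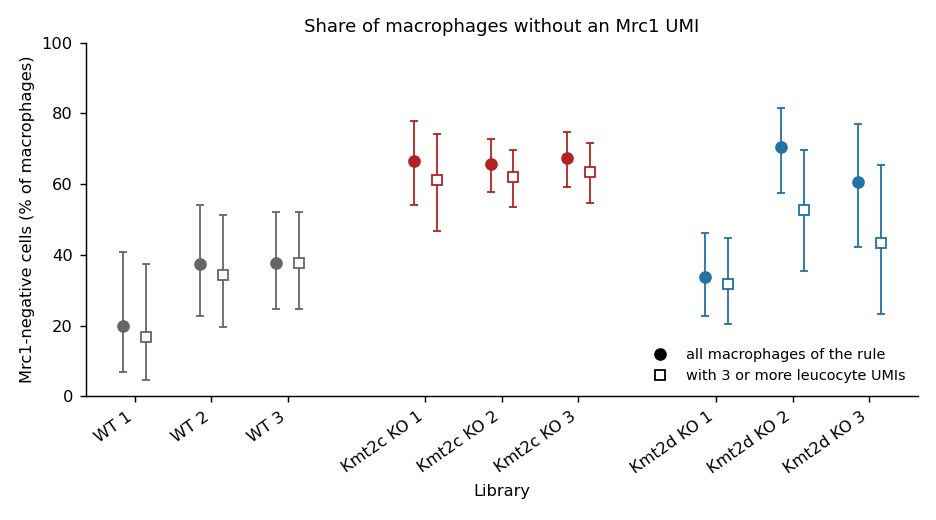
Share of macrophages without an Mrc1 UMI (y axis, percent) in each of the 9 libraries (x axis), for all macrophages of the rule (filled circles) and for those with 3 or more leucocyte UMIs (open squares), with bars for the exact 95% interval of counting error. The filled Kmt2c KO points lie between 65.6% and 67.3% and the filled WT points between 20.0% and 37.7%.

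Members were compared with Mrc1-positive cells of the same tumours in the 5 libraries with at least 20 cells of each class (WT 3, all Kmt2c KO and Kmt2d KO 1). UMIs were summed per library and class, and edgeR's quasi-likelihood test was fitted with the library as a block and Benjamini-Hochberg adjustment over all genes tested. Of 2460 genes, 124 were called at an adjusted p under 0.05 (5.04%), with 54 higher in members (2.2%) and 70 lower (2.85%). Of all genes tested, 6.54% were higher in members in every one of the 5 libraries and 9.8% lower in every one. The genes were read in the same cells as Mrc1, so a call describes what goes with an absent Mrc1 UMI at these depths.

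The clearest loss was of genes typical of tissue-resident, scavenging macrophages. Stab1 (stabilin-1, a scavenger receptor) had 74.6 CPM in the members of WT 3, 37.2, 32.9 and 45.8 CPM in Kmt2c KO 1 to 3 and 83.5 CPM in Kmt2d KO 1. In the Mrc1-positive cells of the same libraries it had 294, 41.0, 316, 247 and 412 CPM, higher in each library though barely so in Kmt2c KO 1. The log2 fold change of members over Mrc1-positive cells was -2.32 ± 0.33 (SE, adjusted p = 0.0040). Pf4 (platelet factor 4, made by resident macrophages) averaged 98.6 CPM in members and 448 CPM in Mrc1-positive cells (log2 fold change -2.09 ± 0.28, adjusted p = 0.0038). Both were lower in members of all 5 libraries.

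The list of resident-type genes had 6 tested members of 21, and 5 were called lower (Stab1, Maf, Selenop, Pf4 and Fcgrt), against 2.85% of all genes tested. Their list had a median log2 fold change of -1.58 against 0.04 over all genes tested. The low-count filter could pass a gene through either class alone, where it was high, so counts and medians of a list are a description. Maf, a transcription factor of macrophage identity, had a log2 fold change of -1.59, and Selenop, the secreted selenium carrier, of -1.58. Other genes with the largest falls included Siglec1 (the sialic acid receptor CD169) at -1.79, Clec4b1 (a C-type lectin) at -2.07 and Klf2 (a transcription factor that restrains inflammatory genes) at -1.91. Frmd4b, Wwp1 (a ubiquitin ligase) and Dgkh (a diacylglycerol kinase) made up the rest, at -1.79, -1.79 and -1.62. With leucocyte transcripts required, 5 of 7 tested resident-type genes were called lower with a median of -1.35, Stab1 at -2.09 and Pf4 at -1.77. Over all genes tested in that set 0.818% were called lower. Folr2, a further resident marker, was untested and had 0 to 50.1 CPM in members and 41.0 to 285 CPM in Mrc1-positive cells.

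The genes higher in members were of another kind. Spp1 (osteopontin, a secreted adhesion protein) had 317 CPM in the members of WT 3, 2994, 6260 and 2964 CPM in Kmt2c KO 1 to 3 and 4158 CPM in Kmt2d KO 1. Mrc1-positive cells of these libraries had 129, 123, 1097, 137 and 852 CPM, lower in each. The log2 fold change was 3.02 ± 0.36 (SE, adjusted p = 0.0018). The other largest rises were Sema5a (a semaphorin) at 3.24, Col4a1 (basement membrane collagen) at 2.66, Cd9 (a tetraspanin) at 2.66, Fn1 (fibronectin) at 2.63, Sdc2 (a syndecan) at 2.57, Apod (apolipoprotein D) at 2.48 and Ly6c2 (a surface protein of inflammatory monocytes) at 2.47. Folds over few UMIs are not exact. Over the alternative settings Sema5a ran from 2.08 to 9.08 and Col4a1 from 1.46 to 4.31. The members of WT 3 had no Sema5a UMI.

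Many of the genes that rose were also abundant in tumour cells. Of the 54 genes called higher, 51 (94.4%) stood higher in H2BMc cells than in Mrc1-positive cells, against 43.1% of all genes tested and 0 of the 70 called lower. Mrc1-positive cells are the denominator of both comparisons, so a gene low in them by chance is high in both, and these shares are a description. Spp1 had 8420 CPM, Fn1 3351 CPM, Cd9 1311 CPM, Col4a1 568 CPM and Sema5a 552 CPM in H2BMc cells. With leucocyte transcripts required, 39 of 2445 genes were called (1.6%), 19 higher (0.777%) and 20 lower (0.818%). Of these, 34 were shared with the 124, which is 27.4% of the larger set and 87.2% of the smaller. Among the 19 rises, 18 again stood higher in H2BMc cells than in Mrc1-positive cells. Spp1 then had 2.13 ± 0.23 (SE, adjusted p = 1.2e-04) and Fn1 1.90 ± 0.31 (SE, adjusted p = 0.0041). The part of tumour cell transcripts in these rises was not tested further.

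Ly6c2 moved differently from the others. It had 55.3 CPM in H2BMc cells and 59.9 CPM in Mrc1-positive cells, and 265 CPM in all members against 338 CPM in those with leucocyte transcripts. In the 5 libraries it had 392, 195, 306, 336 and 267 CPM in members and 35.8, 82.0, 55.8, 130 and 0 CPM in Mrc1-positive cells. Its log2 fold change was 2.47 ± 0.42 (SE, adjusted p = 0.0075), and 2.60 ± 0.40 with leucocyte transcripts (SE, adjusted p = 0.0038). The near-identical Ly6c1 was called as well (2.00), and reads of the pair may be split between them. Ccr2, the chemokine receptor of inflammatory monocytes, did not pass the test between classes (-0.37 ± 0.26, SE, adjusted p = 0.46). Lyz2 likewise did not pass (-0.64 ± 0.31, SE, adjusted p = 0.24), nor did Il1b (interleukin 1 beta, -0.50 ± 0.27, SE, adjusted p = 0.28).

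Single libraries weighed on the number of calls. Without Kmt2c KO 2, the library with most members, 1 gene was called (288 at an unadjusted p under 0.05), and without WT 3 there were 344. Without Kmt2c KO 1 there were 48 calls and without Kmt2c KO 3 there were 26. Spp1 was called in 17 of 19 alternative settings, Ly6c2 in 14 of 16, Pf4 in 14 of 16 and Stab1 in 12 of 14 of those where they were tested.

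**Figure D2:**
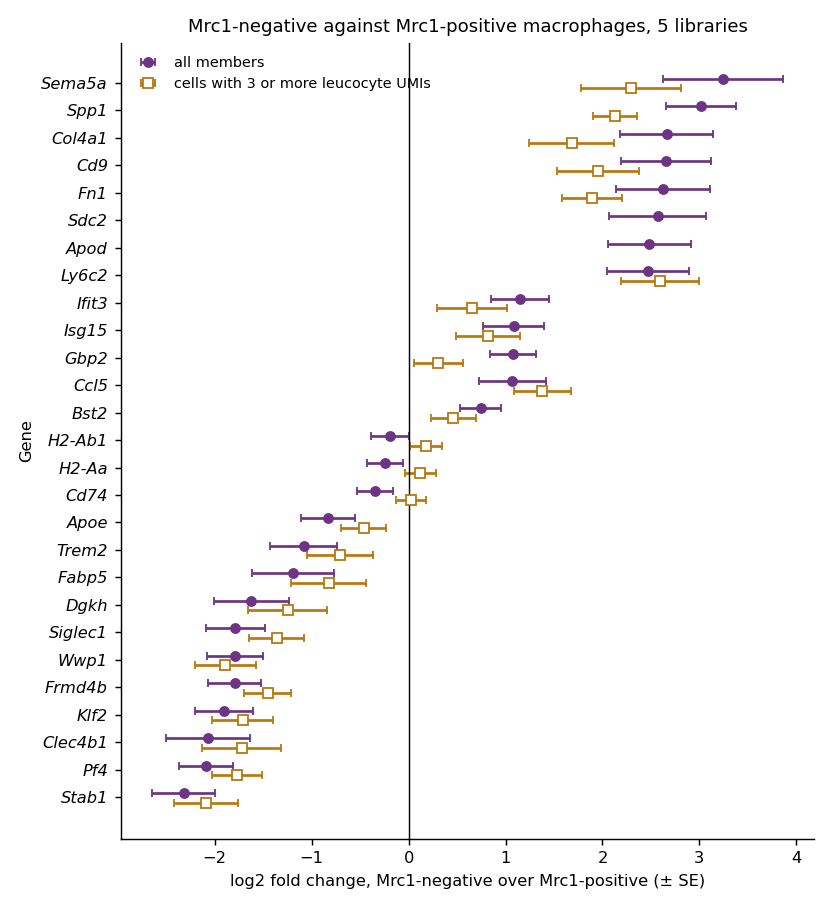
Log2 fold change of Mrc1-negative over Mrc1-positive macrophages (x axis, bars are SE, 5 libraries with the library as a block) for the 8 largest rises, the 8 largest falls and 11 programme genes (y axis), in all cells (circles) and in cells with 3 or more leucocyte UMIs (open squares, absent where the gene was not tested). Spp1 lies at 3.02 and 2.13, Ly6c2 at 2.47 and 2.60, and Stab1 at -2.32 and -2.09.

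**Figure D3:**
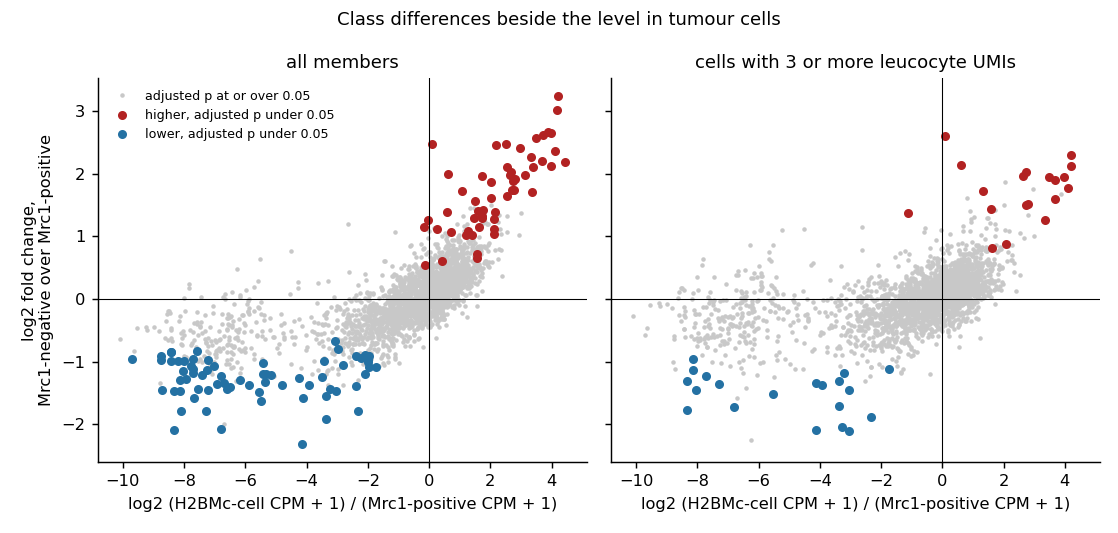
Log2 fold change between the classes (y axis) against the log2 ratio of the level in H2BMc cells to that in Mrc1-positive cells (x axis, CPM + 1) for every gene tested, 2460 in all cells (left) and 2445 in cells with 3 or more leucocyte UMIs (right). Of the 54 genes called higher (red) in the left panel 51 lie to the right of 0, and the 70 called lower (blue) all lie to the left.

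Class II genes were abundant in the members and did not separate the classes. A class II UMI was present in 92.9% of members, with a median of 25.5 UMIs per cell, quartiles of 4 and 77, and a maximum of 673. The 11 genes summed to 9582, 32030 and 40088 CPM in WT, 25345, 18557 and 17793 CPM in Kmt2c KO, and 36750, 11189 and 22683 CPM in Kmt2d KO members. The spread within WT and within Kmt2d KO covered the whole range of Kmt2c KO. Mrc1-positive cells had 28259 to 48365 CPM and H2BMc cells 18.9 to 195 CPM.

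None of the 8 class II genes tested was called between the classes, and their median log2 fold change was -0.29, with all 8 estimates lower. Cd74, the invariant chain that guards the peptide groove, had -0.34 ± 0.18 (SE, adjusted p = 0.29). The alpha and beta chain genes H2-Aa, H2-Ab1 and H2-Eb1 had -0.24 ± 0.19, -0.19 ± 0.19 and -0.19 ± 0.23 (SE, adjusted p = 0.50, 0.62 and 0.68). H2-DMa and H2-DMb1, which load the peptide, had -0.63 ± 0.22 and -0.69 ± 0.27, and Ciita had -0.73 ± 0.33 (SE, adjusted p = 0.11, 0.15 and 0.21). With leucocyte transcripts required the median was 0.07 and 5 of 8 estimates were higher. With cells thinned to 1000 UMIs, which left 4 libraries and 415 genes, H2-Aa and H2-Ab1 were called higher in members (0.48 and 0.52, adjusted p = 0.039 and 0.016), the opposite direction to that at full depth.

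Between genotypes none of the 7 class II genes tested was called. Their median log2 fold change was -0.50 for Kmt2c KO over WT and -0.22 for Kmt2d KO over WT, with all 7 estimates lower in both, against medians of 0.02 over all genes tested. With leucocyte transcripts 7 of 8 estimates were lower in Kmt2c KO (median -0.39) but 4 of 8 in Kmt2d KO (median -0.01). H2-Aa had 1262, 5674 and 7238 CPM in the members of WT 1 to 3, 4528, 3224 and 3617 CPM in Kmt2c KO and 6178, 2635 and 3693 CPM in Kmt2d KO. WT 1 was the lowest and WT 3 the highest of all 9 libraries, so the groups overlapped. Ciita had 287, 175 and 317 CPM in WT, 65.1, 46.1 and 94.6 CPM in Kmt2c KO and 117, 59.7 and 152 CPM in Kmt2d KO. Both KO groups lay below WT, but the difference did not pass the test (-1.83 ± 0.51 and -1.32 ± 0.54, SE, adjusted p = 0.14 and 0.28). With leucocyte transcripts Kmt2c KO still lay below WT in Ciita (-1.43 ± 0.47, SE, adjusted p = 0.16). Kmt2d KO then overlapped WT, with 264 CPM in Kmt2d KO 3 against 237 CPM in WT 2 (-0.64 ± 0.50, SE, adjusted p = 0.73). With leucocyte transcripts the summed class II level was 17550 to 43204 CPM in WT, 24977 to 41396 CPM in Kmt2c KO and 30813 to 43619 CPM in Kmt2d KO.

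Summed over all members of a library, type I interferon genes were highest in Kmt2c KO 2 and 3. A UMI of the list was found in every member and in 99.8% of H2BMc cells, and no level of free RNA was measured. The 41 genes of the list found in the matrix summed to 8836, 3944 and 12480 CPM in WT, 12050, 16848 and 14499 CPM in Kmt2c KO and 8065, 8739 and 5279 CPM in Kmt2d KO members. Kmt2c KO lay above Kmt2d KO, and WT 3 lay among the Kmt2c KO libraries. With leucocyte transcripts this separation was lost, as Kmt2d KO 2 (12722 CPM) lay above Kmt2c KO 1 (11293 CPM) and WT 1, with 4 such members, reached 15316 CPM. The fit of single genes in that set, which left out WT 1, had 19 of 20 estimates higher in Kmt2c KO than in WT (median 1.00) and all 20 lower in Kmt2d KO than in Kmt2c KO (median -0.76), with none called. In Mrc1-positive cells the list stood at 4961 to 7314 CPM in WT, 11772 to 13981 CPM in Kmt2c KO and 5285 to 7764 CPM in Kmt2d KO, and in H2BMc cells at 2381 to 2719, 9446 to 11560 and 3873 to 7405 CPM. Kmt2c KO had the highest mean in members, Mrc1-positive cells and H2BMc cells alike, whereas WT lay wholly below Kmt2d KO in H2BMc cells and overlapped it in members.

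Of 14 type I interferon genes tested between genotypes, none was called. All 14 estimates were higher in Kmt2c KO than in WT with a median log2 fold change of 0.84, 8 of 14 were higher in Kmt2d KO than in WT with a median of 0.03, and 1 of 14 was higher in Kmt2d KO than in Kmt2c KO with a median of -1.10. Immediate early and heat shock genes, a sign of stress in cell preparation, shared this direction between Kmt2c KO and WT, though not the order of single libraries. None of the 8 tested was called, all 8 estimates were higher in Kmt2c KO than in WT (median 0.58), and the 14 genes summed to 2220 to 2697 CPM in WT, 2906 to 4462 CPM in Kmt2c KO and 2108 to 3256 CPM in Kmt2d KO members. With leucocyte transcripts all 9 tested were higher in Kmt2c KO (median 0.95), although the summed levels overlapped. Among all members Kmt2c KO 2 was highest in both lists (16848 CPM of interferon and 4462 CPM of stress genes). WT 3 had the highest interferon sum of WT (12480 CPM) and the lowest stress sum (2220 CPM). In Mrc1-positive cells Kmt2c KO 1 had the highest interferon sum (13981 CPM) and the lowest stress sum (1373 CPM) of all libraries. The part of stress in the interferon values was not tested. Isg15, a ubiquitin-like protein, had 115, 175 and 560 CPM in WT, 976, 1209 and 1203 CPM in Kmt2c KO and 250, 606 and 135 CPM in Kmt2d KO members. Its Kmt2c KO values lay above all others, but the difference from WT did not pass the test (1.88 ± 0.53, SE, adjusted p = 0.15). With leucocyte transcripts the groups overlapped, with 506 CPM in Kmt2c KO 1 against 560 CPM in WT 3 and 731 CPM in Kmt2d KO 2. Bst2 (tetherin, which holds budding viruses) had 344, 285 and 765 CPM in WT and 1088, 1686 and 1026 CPM in Kmt2c KO (1.41 ± 0.35, SE, adjusted p = 0.11). Irf7, the transcription factor that amplifies the response, and Ifi27l2a overlapped between WT and Kmt2c KO, with log2 fold changes of 0.46 ± 0.59 and 0.39 ± 0.49 (SE, adjusted p = 0.81 for both).

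Between the classes 3 of 31 type I interferon genes were called higher in members, Ifit1, Ifit3 and Ifitm3, and none lower, with a median of 0.16. Over all genes tested 2.2% were called higher and 2.85% lower. Ifit3 (an RNA-binding antiviral protein, with a near-identical copy Ifit3b that may share its reads) had 1.15 ± 0.30 (SE, adjusted p = 0.042), and 0.65 ± 0.36 with leucocyte transcripts (SE, adjusted p = 0.46). Isg15 had 1.08 ± 0.32 (SE, adjusted p = 0.065), Bst2 0.74 ± 0.21 (SE, adjusted p = 0.060), Irf7 0.40 ± 0.33, Ifi27l2a 0.22 ± 0.16 and Rsad2 (viperin) -0.07 ± 0.32. With leucocyte transcripts none of 30 was called (median 0.20), so the calls of this list did not hold in that set.

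Interferon gamma genes (33 in the matrix) summed to 1492, 2782 and 5279 CPM in WT, 4398, 6260 and 6673 CPM in Kmt2c KO and 2989, 5771 and 1282 CPM in Kmt2d KO members, and the groups overlapped. Between genotypes none of 13 was called, with medians of 0.90 for Kmt2c KO over WT, 0.22 for Kmt2d KO over WT and -0.85 for Kmt2d KO over Kmt2c KO. With leucocyte transcripts none of 19 was called, and 17 of the 19 estimates were higher in Kmt2c KO than in WT (median 1.19). Gbp2, a guanylate-binding GTPase, had 57.4, 329 and 93.3 CPM in WT and 409, 553 and 510 CPM in Kmt2c KO, which did not overlap (1.52 ± 0.56, SE, adjusted p = 0.27). Cd274 (the checkpoint ligand PD-L1) had 0, 87.6 and 74.6 CPM in WT and 102, 231 and 305 CPM in Kmt2c KO (1.76 ± 0.64, SE, adjusted p = 0.27). The T cell attractants Cxcl9 and Cxcl10 had 1.29 ± 0.85 and 0.18 ± 0.68 in the same contrast (SE, adjusted p = 0.57 and 0.95), and their WT values ran from 0 to 616 and from 87.6 to 672 CPM.

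Between the classes Gbp2 was the interferon gamma gene of 23 that was called (1.07 ± 0.24, SE, adjusted p = 0.019), while 2.2% of all genes tested were called higher. Gbp2 lost the call with leucocyte transcripts (0.31 ± 0.25, SE, adjusted p = 0.66). Ccl5, a chemokine for T cells, took the opposite course. It missed the threshold in all cells (1.07 ± 0.34, SE, adjusted p = 0.088) and passed with leucocyte transcripts (1.38 ± 0.29, SE, adjusted p = 0.018, higher in 5 of 5 libraries, as were 4.29% of all genes tested, while 6.99% were lower in all 5). Its level in members ran from 16.9 CPM in Kmt2d KO 3 to 1874 CPM in Kmt2d KO 2, so that both extremes were of 1 genotype. A 3-gene list that includes Ccl5 had a median of 1 UMI per member and a maximum of 303. The part of single cells in the Ccl5 levels was not tested. Cxcl9, Cxcl10 and Cd274 had -0.20 ± 0.36, 0.30 ± 0.48 and -0.30 ± 0.29 (SE, adjusted p = 0.79, 0.77 and 0.61).

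MHC class I genes, which present peptides from inside the cell to CD8 T cells, had their highest summed levels in Kmt2c KO members. The 16 genes summed to 7459, 9267 and 11976 CPM in WT, 16345, 21214 and 16044 CPM in Kmt2c KO and 12423, 14058 and 11923 CPM in Kmt2d KO members. Kmt2c KO lay above both other groups without overlap. With leucocyte transcripts the KO groups overlapped, as Kmt2d KO 2 (16672 CPM) lay above Kmt2c KO 1 (14975 CPM) and Kmt2c KO 3 (15423 CPM), while WT had 8249 to 13295 CPM. The class I genes are near-identical copies whose reads may be split between them. None of the 14 genes tested was called, although all 14 estimates were higher in Kmt2c KO than in WT (median log2 fold change 0.69) and 11 of 14 in Kmt2d KO than in WT (median 0.33). Mrc1-positive cells had 8684 to 11023 CPM in WT, 16172 to 17978 CPM in Kmt2c KO and 9383 to 13872 CPM in Kmt2d KO. Kmt2c KO thus lay above both other groups in these macrophages as well. H2BMc cells of the same libraries had 8800 to 9112 CPM, 18496 to 19626 CPM and 12707 to 15816 CPM, the same order at similar levels.

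**Figure D4:**
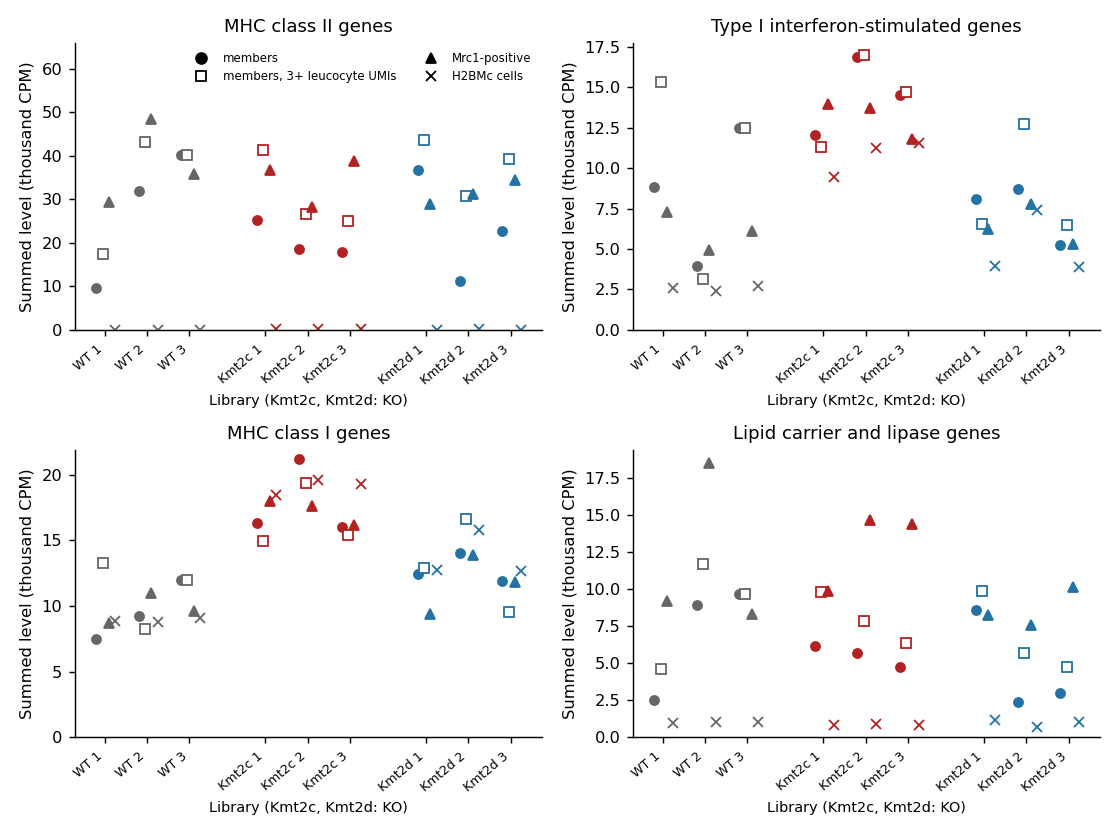
Summed level of the genes of 4 lists (y axis, in units of 1000 CPM) in each library (x axis, WT grey, Kmt2c KO red, Kmt2d KO blue) for members (circles), members with 3 or more leucocyte UMIs (open squares), Mrc1-positive macrophages (triangles) and H2BMc cells (crosses). Class II genes are near 0 in H2BMc cells, and class I genes in H2BMc cells are higher in all 3 Kmt2c KO libraries than in the others, while type I interferon levels of WT 3 members lie among those of Kmt2c KO members.

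Lipid genes were described by their roles. For uptake, 2 of 6 tested genes were called lower in members than in Mrc1-positive cells, the scavenger receptors Msr1 (-1.07) and Stab1, and none higher (list median -0.88). Over all genes tested 2.85% were called lower and 2.2% higher. Stab1 is also on the resident-type list, so its call is counted in both. Trem2, a lipid receptor of lipid-laden macrophages, had -1.08 ± 0.34 (SE, adjusted p = 0.084), and Cd68, a lysosomal scavenger protein, -0.68 ± 0.26 (SE, adjusted p = 0.14). With leucocyte transcripts 1 of 6, Stab1, was called lower, against 0.818% of all genes tested. Trem2 had 0 to 197 CPM in members and 102 to 334 CPM in Mrc1-positive cells.

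Lipid carriers and lipases summed to 2525, 8895 and 9644 CPM in WT, 6146, 5704 and 4716 CPM in Kmt2c KO and 8582, 2406 and 2951 CPM in Kmt2d KO members, against 7559 to 18496 CPM in Mrc1-positive and 705 to 1136 CPM in H2BMc cells. None of the 4 genes tested was called between the classes, with a median of -0.63 and all 4 estimates lower. Apoe (apolipoprotein E, the main carrier that macrophages secrete) had -0.83 ± 0.28 (SE, adjusted p = 0.10), and Fabp5, a fatty acid-binding protein, -1.19 ± 0.42 (SE, adjusted p = 0.11). In members Apoe had 631, 5192 and 3470 CPM in WT, 2733, 2170 and 2015 CPM in Kmt2c KO and 4491, 547 and 540 CPM in Kmt2d KO. WT and Kmt2d KO each held libraries of high and low level, and Apoe did not pass between genotypes (-0.42 ± 0.73 and -0.78 ± 0.75 against WT, SE, adjusted p = 0.86 and 0.68). Lpl (lipoprotein lipase) was untested, with 0 to 130 CPM in members.

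Of the lysosome list 1 of 14 genes was called higher between the classes (Cd9) and 1 lower (Hexa, a hexosaminidase, -1.05), with a median of -0.16. The shares over all genes tested were 2.2% higher and 2.85% lower. Lipa (lysosomal acid lipase) and Gpnmb were untested, with 0 to 134 CPM and 0 to 135 CPM in members. Gpnmb was at 0 in the Mrc1-positive cells of 6 of 9 libraries. For storage, Plin2, which coats lipid droplets, had 0.25 ± 0.25 (SE, adjusted p = 0.62), and neither of 2 tested genes was called. For efflux, Abca1 was untested with 0 to 172 CPM, and none of the 17 genes of sterol and fatty acid synthesis had enough UMIs to be tested.

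Of genes the study uses to type macrophages, Cd68 and Ccl5 are given above. Socs3, a brake on cytokine signalling, had -0.72 ± 0.26 between the classes (SE, adjusted p = 0.13). Arg1 (arginase) and Vegfa were untested. Arg1 was at 0 in the members of 7 of 9 libraries and had at most 24.4 CPM, and in Mrc1-positive cells it was at 0 in 5 of 9 libraries and had 163 and 419 CPM in Kmt2d KO 1 and 2. Those 2 libraries had no Arg1 UMI in members. Vegfa had 21.9 to 118 CPM in members and 0 to 68.6 CPM in Mrc1-positive cells. Neither pattern was tested.

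Between genotypes few genes passed the test in the members. edgeR's quasi-likelihood test over all 9 libraries called 3 of 1091 genes for Kmt2c KO against WT (0.275%, with 2 higher at 0.183% and 1 lower at 0.0917%), 7 for Kmt2d KO against WT (0.642%, with 5 higher at 0.458% and 2 lower at 0.183%) and 0 for Kmt2d KO against Kmt2c KO (0.0%, with 57 genes at an unadjusted p under 0.05 and 1 called by DESeq2). Both contrasts with WT share the WT libraries. Libraries did not overlap in 11.7% of genes higher and 9.26% lower for Kmt2c KO against WT, in 9.35% and 6.42% for Kmt2d KO against WT, and in 6.23% and 8.98% for Kmt2d KO against Kmt2c KO. In this bulk of summed cells, a change per cell and a change in the mix of cells cannot be told apart.

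Ccr2 was lower in the members of both KO groups. It had 230, 438 and 504 CPM in WT, 102, 72.4 and 94.6 CPM in Kmt2c KO and 117, 44.7 and 50.6 CPM in Kmt2d KO. All 6 KO libraries lay below all WT libraries. The log2 fold change was -2.19 ± 0.39 for Kmt2c KO (SE, adjusted p = 0.044) and -2.63 ± 0.45 for Kmt2d KO (SE, adjusted p = 0.031). The 8-gene leucocyte marker list moved with it, with all 8 estimates lower in both KO groups and none called (medians -0.57 and -0.89), and with leucocyte transcripts it summed to 18516 to 21910 CPM in WT, 10030 to 16249 CPM in Kmt2c KO and 9567 to 17136 CPM in Kmt2d KO members, so that both KO groups lay below WT. In the fit of that set 5 of its 8 estimates were lower in Kmt2c KO (median -0.28) and all 8 in Kmt2d KO (median -0.44), with none called. The 6 genes that set these cells apart are among the 8, so the levels there are a description. The part of this list in the Ccr2 values was not tested. H2BMc cells held 0.121 CPM of Ccr2, and Mrc1-positive cells had 480, 162 and 423 CPM in WT, 164, 86.8 and 199 CPM in Kmt2c KO and 185, 118 and 214 CPM in Kmt2d KO. The genotype fits of members with leucocyte transcripts left out WT 1, where 4 such members remained, and so rest on 8 libraries with 2 of WT. There Ccr2 had 593 and 504 CPM in WT 2 and 3 and 169, 105 and 134 CPM in Kmt2c KO members (-1.96 ± 0.33, SE, adjusted p = 0.011), and 140, 127 and 88.0 CPM in Kmt2d KO members (-2.07 ± 0.38, SE, adjusted p = 0.11). Over the alternative settings Ccr2 was called in 11 of 21 for Kmt2c KO and in 9 of 21 for Kmt2d KO, with estimates of -2.42 to -1.26 and -3.01 to -1.74.

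Lilr4b, a receptor of a family of near-identical genes whose reads may be split, was lower in Kmt2d KO members. It had 230, 329 and 448 CPM in WT, 186, 201 and 189 CPM in Kmt2c KO and 50.1, 49.7 and 118 CPM in Kmt2d KO. The 3 groups did not overlap. The log2 fold change against WT was -2.34 ± 0.42 in Kmt2d KO (SE, adjusted p = 0.031) and -0.84 ± 0.35 in Kmt2c KO (SE, adjusted p = 0.32). With leucocyte transcripts the Kmt2d KO difference was -1.69 ± 0.42 (SE, adjusted p = 0.12).

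Of the genes called higher in KO members, Igfbp4, Phlda1 and Cd63 stood at 569 to 1770 CPM in H2BMc cells. No share of such levels over all genes tested was taken, so this is a description. Igfbp4, a binding protein of insulin-like growth factors, had 0, 153 and 112 CPM in WT, 800, 2052 and 907 CPM in Kmt2c KO and 852, 805 and 944 CPM in Kmt2d KO members (log2 fold changes of 3.57 ± 0.52 and 3.06 ± 0.53, SE, adjusted p = 0.022 and 0.031). H2BMc cells had 1334 CPM of it and Mrc1-positive cells 273 CPM. Phlda1 was called in both KO groups as well (4.28 ± 0.74 and 4.17 ± 0.75, SE, adjusted p = 0.044 and 0.031), with 569 CPM in H2BMc cells. Over the alternative settings it was called in 8 of 20 for Kmt2c KO and in 6 of 20 for Kmt2d KO. Its estimates ran from 2.97 to 4.96 and from 3.19 to 4.84. In Kmt2d KO the others were Rhox5 (a homeobox gene, 3.74), Tm4sf1 (a membrane protein, 3.30) and Cd63 (a tetraspanin of lysosomes, 1.40 ± 0.27, SE, adjusted p = 0.041). Over the alternative settings Rhox5 was called in 5 of 17, Tm4sf1 in 5 of 18 and Cd63 in 3 of 21. The estimates ran from 3.50 to 4.07 for Rhox5 and from 2.47 to 8.38 for Tm4sf1. The low-count filter could pass a gene through the KO libraries alone, and a fold change over few WT UMIs is not exact. With leucocyte transcripts Rhox5 was untested and Tm4sf1, at 0 in WT, had an adjusted p of 0.37. Cd63 had 1770 CPM in H2BMc cells.

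By library, the shares of members with few leucocyte transcripts given above overlapped between the genotypes and were highest in Kmt2d KO 2 (24 of 43) and Kmt2d KO 3 (10 of 20). With leucocyte transcripts required and WT 1 left out, Igfbp4 kept its call in Kmt2c KO (2.46 ± 0.49, SE, adjusted p = 0.020) but not in Kmt2d KO (1.87 ± 0.54, SE, adjusted p = 0.24), and neither Phlda1 (3.62 and 3.19, adjusted p = 0.22 and 0.51) nor Cd63 (1.28 and 1.07, adjusted p = 0.11 and 0.35) had a call, with estimates in the same direction. Leaving out WT 1 alone also ended the Kmt2d KO calls of Igfbp4 (2.78, adjusted p = 0.073), Phlda1 (3.93, adjusted p = 0.073), Cd63 (1.33, adjusted p = 0.12), Lilr4b (-2.49, adjusted p = 0.060), Rhox5 and Tm4sf1 (adjusted p = 0.073 for both, estimates still higher), so the share of either step in these losses was not tested. Of 1258 genes, 13 were then called for Kmt2c KO against WT (1.03%, 8 higher at 0.636% and 5 lower at 0.397%). In edgeR none was called for Kmt2d KO against WT (0.0%, 123 at an unadjusted p under 0.05) or against Kmt2c KO (0.0%, 105 at an unadjusted p under 0.05). Of these 13, Ccr2 and Igfbp4 were shared with the 3 called in all members. Of the 8 rises, Fn1 had 89.0 and 149 CPM in WT 2 and 3 and 506, 1889 and 1427 CPM in Kmt2c KO (3.47 ± 0.59, SE, adjusted p = 0.011). In all members Fn1 had 2467, 2257 and 149 CPM in WT, and its difference from Kmt2c KO did not pass the test (0.77 ± 0.67, SE, adjusted p = 0.70). Fn1 and the other rises were named after their values were seen, and these were Igfbp4, Sema5a, Ghr, Ass1, Trps1, Asap1 and Zbtb20. In all members, WT 1 included, Zbtb20 turned in sign (-0.15 against 3.54), Trps1 (0.20 against 2.08), Asap1 (0.29 against 1.97), Sema5a (0.49) and Ghr (1.19) did not pass the test, and WT 1 had 1836 CPM of Trps1 and 1320 CPM of Zbtb20. Sema5a and Ghr had no UMI in the WT members with leucocyte transcripts, and Ass1 had 319 CPM in WT 1, above Kmt2c KO. The other falls, named after their values were seen, were Pltp (a phospholipid transfer protein of lipoproteins, -1.86 ± 0.29, SE, adjusted p = 0.0095), Stmn1 (a microtubule regulator of dividing cells, -2.46), Crip1 (-1.74) and Gpx1 (an antioxidant enzyme, -1.51). In all members Pltp had 115, 854 and 1119 CPM in WT and 223, 211 and 198 CPM in Kmt2c KO, so that WT 1, which this fit left out, lay below Kmt2c KO. The same held for Stmn1, with 0 CPM in WT 1 and 65.1 to 107 CPM in Kmt2c KO, and for Gpx1, with 230 CPM in WT 1 and 724 to 818 CPM in Kmt2c KO.

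The genotype calls rested on few libraries and WT cells. For Kmt2c KO against WT there were 0 calls without Kmt2c KO 2, Kmt2d KO 3 or WT 3, 1 without Kmt2c KO 1 or Kmt2c KO 3, 5 without Kmt2d KO 2 and 7 without WT 1. For Kmt2d KO against WT there were 0 calls without Kmt2c KO 1, Kmt2c KO 3, Kmt2d KO 2, Kmt2d KO 3 or WT 3, 1 without Kmt2c KO 2 or WT 1, and 2 without WT 2. In the members of all libraries the monocyte list (9 genes, Ccr2 and Ly6c2 included) summed to 898 to 1343 CPM in WT, 705 to 849 CPM in Kmt2c KO and 219 to 735 CPM in Kmt2d KO. With leucocyte transcripts it summed to 742 to 2446, 808 to 982 and 176 to 1068 CPM, and the groups overlapped. Of its 4 genes tested in all members, Ccr2 alone was called, and 2 of the 4 estimates were higher in Kmt2c KO than in WT (median -0.04). In Kmt2d KO all 4 were lower (median -0.72). With leucocyte transcripts 2 of 3 tested were higher in each KO group (medians 0.56 and 0.26). Spp1 did not pass between genotypes in all members (1.15 ± 0.76 and 1.48 ± 0.77 against WT, SE, adjusted p = 0.57 and 0.41), with WT values of 287, 4754 and 317 CPM. With leucocyte transcripts its log2 fold changes were larger, at 3.08 ± 0.78 and 3.31 ± 0.79 (SE, adjusted p = 0.075 and 0.12), and did not pass either. It then had 213, 119 and 317 CPM in WT, 430, 3740 and 1267 CPM in Kmt2c KO and 2916, 1560 and 2054 CPM in Kmt2d KO members, so that both KO groups lay above WT.

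**Figure D5:**
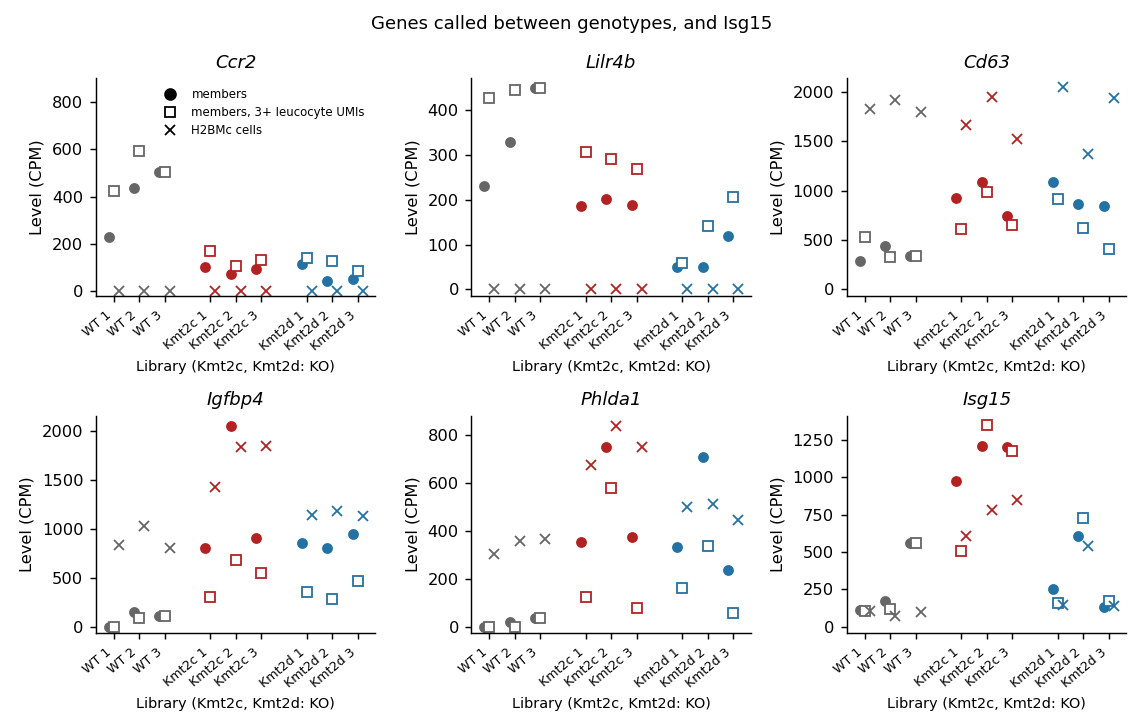
Level (y axis, CPM) of 5 genes called between genotypes in the members and of Isg15 in each library (x axis, WT grey, Kmt2c KO red, Kmt2d KO blue), for members (circles), members with 3 or more leucocyte UMIs (open squares) and H2BMc cells (crosses). Ccr2 lies at 230 to 504 CPM in WT members and at 44.7 to 117 CPM in KO members with almost none in H2BMc cells, while Igfbp4 and Phlda1 are high in H2BMc cells.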

How the data were processed

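Single-cell suspensions of whole tumours were not sorted and were sequenced with a 10x 5′ kit. The authors counted UMIs per gene and barcode with Cell Ranger 7.0.1 (count and aggr) on build mm10 per the labels, and the deposited values are raw counts in an aggregated matrix, where a letter gives each library's genotype. Whether depth was equalised on aggregation was not given in the sources used here. The members, lists and tests were chosen with earlier results of these data known.

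UMIs of members were summed per library and tested with edgeR 4.0.16 (glmQLFit, filterByExpr, TMM) in R 4.3.3, with limma 3.58.1 loaded and DESeq2 1.42.0 as an alternative. Calls had an adjusted p under 0.05. Genotype fits used all 9 libraries, since a minimum of 20 members left 1 WT library, and those of members with leucocyte transcripts used 8, without WT 1. The class fit left out the 10 genes of the rule. Shares were tested by exact permutation (SciPy 1.17.1). No doublet caller was run. CPM is per 1000000 UMIs of the summed cells. In simulated counts the fits recovered 83.3% of 96 genes changed 4-fold (Kmt2c KO against WT) and 100% of 129 (between classes), with 2 and 5 false calls. These counts had a fixed spread between libraries around a pooled profile, and only well-counted genes were changed. Spread in the real members was not matched, so the shares do not give the power of the real fits.

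Named genes were a fixed list of 36, the 8 largest rises and falls between classes at 50 CPM or more, and the 5 largest rises and falls of each genotype contrast among called genes without overlap. Precision is set by 17429 to 327604 member UMIs per library, and intervals cover counting error only.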

Additional observations from a re-analysis of the deposited data

Results flagged for a closer look

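For interferon gamma genes, the mean difference between members and Mrc1-positive cells went opposite ways in WT and Kmt2c KO. The summed level in members minus that in Mrc1-positive cells averaged 1247 CPM in WT, positive in each of 3 libraries, and -1645 CPM in Kmt2c KO, negative in each of 3 libraries. Members had 1492, 2782 and 5279 CPM in WT against 1468, 2075 and 2271 CPM in Mrc1-positive cells, and 4398, 6260 and 6673 CPM in Kmt2c KO against 7052, 6990 and 8223 CPM. The WT mean rested on WT 3 and was 366 CPM without it. WT 1, with 5 members, differed by 23.7 CPM, below the 57.4 CPM of 1 UMI there, so its sign is not resolved. Kmt2d KO was mixed, at 1044, -1541 and -2698 CPM. With leucocyte transcripts WT 2 differed by 32.2 CPM, and Kmt2d KO 2 turned from -1541 to 3020 CPM. The difference between the genotypes was not tested.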

How the results depend on the processing

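Genotype fits used no pairing between libraries. None was stated for these tumours in the sources used here, and the libraries in the matrix carry no replicate numbers. Between classes the library was the block that pairs the samples, and without that block 95 genes were called against 124 with it. For Kmt2c KO against WT the 3 calls became 22 with DESeq2, 7 with at least 10 members per library, 17 with at least 20 (1 WT library, assumed to vary like the other groups, chosen after seeing the data), 13 with leucocyte transcripts, 20 with at least 5 marker UMIs, 45 without a filter on low counts, 35 without markers of other leucocytes, 1 with only the 2 groups and 17 after thinning to 1000 UMIs, and 0 to 7 with 1 library left out. For Kmt2d KO against WT the 7 calls became 15 with DESeq2, 1 with at least 10 members, 19 with at least 20, 0 with leucocyte transcripts, 0 with at least 3 of 5 markers, 29 without the filter, 70 without markers of other leucocytes, 0 with only the 2 groups and 0 after thinning, and 0 to 7 with 1 library left out. The genotype fits with a limit on members, markers, leucocyte transcripts or other leucocytes' markers lost 1 library or more. For Kmt2d KO against Kmt2c KO the 0 calls became 1 with DESeq2, 9 without the filter, 3 without markers of other leucocytes and 0 to 1 with 1 library left out. Between classes the 124 calls became 63 with DESeq2, 366 with at least 10 cells per class (8 libraries), 39 with leucocyte transcripts, 57 with these and thinning, 16 with at least 3 of 5 markers, 35 with at least 5 marker UMIs, 489 without the filter, 55 against cells with at least 2 Mrc1 UMIs, 74 after thinning, 53 with only Mrc1 read again after thinning (chosen after seeing the data, as was the setting with 57), 1 to 344 with 1 library left out, and 0 of 1843 tested without markers of other leucocytes, where 2 libraries remained (364 at an unadjusted p under 0.05). The causes were not tested, other than the smaller numbers of cells and libraries by construction.

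The exact permutation p of the share over genotypes was 0.168, and 0.025 with leucocyte transcripts, 0.0107 with at least 3 of 5 markers and 0.00357, the smallest possible, with at least 5 marker UMIs. All are without adjustment. Settings other than the main one set no minimum number of macrophages per library. WT 1 had 13 macrophages with at least 3 of 5 markers and 14 with at least 5 marker UMIs, and Kmt2d KO 3 had 17 and 15. Leaving out 1 library gave 0.0607 to 0.357. The class II genes H2-Aa, H2-Ab1 and H2-Eb1, uncalled at -0.24, -0.19 and -0.19, were called higher in members at 0.63, 0.63 and 0.49 with leucocyte transcripts and thinning. H2-Aa was at 0.48 and H2-Ab1 at 0.52 after thinning alone, and H2-Ab1 at 0.52 with only Mrc1 read again. Both contrasts with WT rest on 40 WT members, of which 5 were in WT 1.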
